A study of Mus musculus with 27 samples.

Results

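Some stretches of chromatin in blood progenitors carried H3K27ac, acetylation of lysine 27 of histone H3, without a called peak of H3K4me1, monomethylation of lysine 4 of the same histone. A site belonged to this set when its peak in an H3K27ac list of hematopoietic progenitor cells (HPC) overlapped, by 1 bp or more, no peak of the 4 H3K4me1 lists, which covered hematopoietic stem cells (HSC) and HPC of adults and fetuses. By this rule 6096 of 63108 adult HPC H3K27ac peaks and 9739 of 50858 fetal ones were sites without H3K4me1, 15835 of the 901169 peaks of the 8 lists of the series. The sites of each age were kept apart. They were chosen by the absence of one mark, so that absence is not a result.

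Adult cells came from mice of 8 weeks and fetal cells from embryos at E16.5, all on the B6 background. Adult HPC gave 3 H3K27ac and 3 H3K4me1 libraries and adult HSC gave 4 H3K4me1 libraries, while fetal HPC gave 3 and 3 and fetal HSC gave 3. A further set in HPC, of 3 adult and 2 fetal libraries, had H3K27me3 in the titles but H3K27ac in the mark field. Its mark is therefore not named, and it appears below as the second K27 set. Together with 3 inputs these were 27 libraries, made by ChIPmentation, an immunoprecipitation in which Tn5 adds the sequencing adapters to bound chromatin. The gates of the sort, the sex of the animals and any pooling of animals were not given in the sources used here. Each group had 1 peak list pooled over its libraries, so no spread between replicates could be measured and no test was possible. The 95% Wilson intervals on shares and Newcombe intervals on differences cover counting error only. The read depth is unknown, and a site without a called peak may still carry the mark. As a check of the label, 18 of 19 stem and progenitor genes with an annotated start had an adult H3K27ac peak within 1 kb and 17 of 19 had a fetal one, against 55.6% of all such coding genes in adult HPC and 47.5% in fetal HPC. Of 43 marker genes of hepatocytes, endothelium, B, T and NK cells, macrophages and stroma, 15 had an adult peak and 11 a fetal one. They included 4 of 5 endothelial markers at each age and, in adult HPC, 5 of 11 T and NK markers and 3 of 6 B cell markers.

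H3K27ac is placed by the acetyltransferases CBP and p300 at active enhancers and promoters. H3K4me1 is placed mainly by the methyltransferases MLL3 and MLL4 and is the usual companion of H3K27ac at enhancers. At the start of a strongly used promoter H3K4me3 takes its place, and H3K4me1 then lies on both sides of the start. H3K4me3 was not among the marks analysed here.

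The promoters of 8 genes with such a site at a start are shown because parts of the results below turn on these genes. Each run is the RefSeq GRCm38.p6 window of 300 bases, from 250 before to 50 after the annotated start, read along the gene's strand. Phf8, Atrx, Huwe1 and Pola1 stand for the X chromosome, Mllt3, Hlf and Bcl11a for stem cell and lymphoid regulators on autosomes, and H2bc12 for histone genes. Capitals mark letters of 5 motifs on either strand: the GC box GGGCGG bound by SP and KLF factors, CCAAT bound by NF-Y, CCGGAAG bound by ETS factors, TATAAA (the TATA box) and the E-box CACGTG. Where matches overlap or touch, their capitals run together.
Phf8 promoter, chrX:151520422-151520721 (plus strand): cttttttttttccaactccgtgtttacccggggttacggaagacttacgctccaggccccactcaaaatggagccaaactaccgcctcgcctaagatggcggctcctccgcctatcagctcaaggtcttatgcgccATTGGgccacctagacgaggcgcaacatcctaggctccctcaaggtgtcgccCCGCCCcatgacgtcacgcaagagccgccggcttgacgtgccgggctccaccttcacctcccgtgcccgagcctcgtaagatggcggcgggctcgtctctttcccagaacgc
Atrx promoter, chrX:105929323-105929622 (minus strand): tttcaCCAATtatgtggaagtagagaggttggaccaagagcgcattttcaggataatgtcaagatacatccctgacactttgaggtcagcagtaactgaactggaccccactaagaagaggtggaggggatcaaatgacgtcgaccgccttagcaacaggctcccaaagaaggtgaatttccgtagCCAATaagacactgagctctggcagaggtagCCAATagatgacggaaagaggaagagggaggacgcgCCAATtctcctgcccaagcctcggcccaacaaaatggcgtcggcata
Huwe1 promoter, chrX:151803032-151803331 (plus strand): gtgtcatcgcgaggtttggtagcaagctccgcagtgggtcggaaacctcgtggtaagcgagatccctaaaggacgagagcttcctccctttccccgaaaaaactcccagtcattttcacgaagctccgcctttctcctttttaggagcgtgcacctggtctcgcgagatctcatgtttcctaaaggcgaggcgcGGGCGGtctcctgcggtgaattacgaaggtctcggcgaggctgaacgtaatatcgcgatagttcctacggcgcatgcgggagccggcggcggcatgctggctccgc
Pola1 promoter, chrX:93632106-93632405 (minus strand): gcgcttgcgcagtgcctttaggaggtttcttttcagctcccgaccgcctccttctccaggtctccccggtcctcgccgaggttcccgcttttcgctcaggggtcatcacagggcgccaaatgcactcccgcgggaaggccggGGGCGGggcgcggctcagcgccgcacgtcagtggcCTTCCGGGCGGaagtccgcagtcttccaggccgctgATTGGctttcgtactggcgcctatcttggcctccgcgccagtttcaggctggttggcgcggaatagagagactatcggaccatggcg
Mllt3 promoter, chr4:88033358-88033657 (minus strand): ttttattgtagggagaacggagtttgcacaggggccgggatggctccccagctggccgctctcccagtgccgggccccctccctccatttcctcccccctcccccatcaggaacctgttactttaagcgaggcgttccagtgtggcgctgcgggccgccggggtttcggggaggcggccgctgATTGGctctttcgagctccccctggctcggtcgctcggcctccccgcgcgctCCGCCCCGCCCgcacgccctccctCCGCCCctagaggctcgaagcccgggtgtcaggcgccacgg
Hlf promoter, chr11:90390868-90391167 (minus strand): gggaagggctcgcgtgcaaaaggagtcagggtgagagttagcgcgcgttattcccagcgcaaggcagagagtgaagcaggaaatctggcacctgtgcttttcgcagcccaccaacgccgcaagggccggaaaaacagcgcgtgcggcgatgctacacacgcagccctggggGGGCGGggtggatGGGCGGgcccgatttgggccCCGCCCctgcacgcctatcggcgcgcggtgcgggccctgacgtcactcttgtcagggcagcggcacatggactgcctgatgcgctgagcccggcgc
Bcl11a promoter, chr11:24080445-24080744 (plus strand): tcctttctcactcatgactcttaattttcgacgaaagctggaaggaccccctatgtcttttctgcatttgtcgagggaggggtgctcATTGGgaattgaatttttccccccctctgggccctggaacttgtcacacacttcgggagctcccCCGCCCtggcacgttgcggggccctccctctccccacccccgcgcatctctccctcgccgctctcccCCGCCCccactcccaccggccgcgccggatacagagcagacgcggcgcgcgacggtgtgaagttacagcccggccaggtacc
H2bc12 promoter, chr13:22035571-22035870 (plus strand): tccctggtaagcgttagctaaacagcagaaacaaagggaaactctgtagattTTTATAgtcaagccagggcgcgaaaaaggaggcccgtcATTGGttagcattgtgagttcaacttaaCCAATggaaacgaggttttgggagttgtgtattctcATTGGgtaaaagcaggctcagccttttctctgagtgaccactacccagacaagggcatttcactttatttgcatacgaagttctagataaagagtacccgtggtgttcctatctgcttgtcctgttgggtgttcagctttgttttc
The windows of Phf8, Atrx, Huwe1, Pola1 and Mllt3 had sites without H3K4me1 as their only H3K27ac peaks within 1 kb of the start at both ages. For Hlf and Bcl11a this held in fetal HPC. At H2bc12 another H3K27ac peak, with H3K4me1, also lay within 1 kb. The fetal Mllt3 site lay 963 bp from the start, outside the window shown. Atrx held 4 CCAAT boxes and no GC box in its window, and H2bc12 held 3 CCAAT boxes and a TATA box. Mllt3 and Hlf held 3 GC boxes each. These matches describe the letters only.

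The share of acetylated peaks without H3K4me1 was 9.66% in adult HPC (interval 9.43% to 9.89%) and 19.1% in fetal HPC (18.8% to 19.5%), an adult minus fetal difference of -9.49 points (-9.90 to -9.08). This comparison mixes age with the length of the lists, which held 126502 H3K4me1 peaks for adult HPC, 143571 for adult HSC, 177310 for fetal HPC and 231188 for fetal HSC. Their part in the difference was not tested. The shares ranged with the rule, from 1.24% for strong peaks to 18.0% under a rule of 0.5 of the peak covered in adult HPC, and from 2.20% to 27.98% in fetal HPC. The adult share lay below the fetal one under these alternatives, but against the fetal HSC H3K4me1 list alone it did not, at 25.03% of adult and 24.9% of fetal peaks. Against any single H3K4me1 list, 13.1% to 25.03% of adult peaks and 24.6% to 30.9% of fetal peaks had no overlap. The HPC list of the same age alone left 8276 adult and 12494 fetal peaks. Of these, 1036 adult and 1599 fetal peaks had H3K4me1 in HSC of the same age.

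Sites without H3K4me1 were mostly small and weak. Their median width was 333.5 bp in adult HPC, against 792 bp for the other adult H3K27ac peaks, a ratio of 0.421. In fetal HPC it was 312 bp, against 643 bp for the other fetal peaks, a ratio of 0.485. The authors' fold of signal over background had a median of 2.55 at adult sites, against 3.33 at the other adult peaks. At fetal sites the median was 2.85, against 3.51 at the other fetal peaks. A narrow peak has fewer bases with which to meet an H3K4me1 peak, and so the rule itself bears on this gap.

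The rule divided near neighbours at its edge. An H3K4me1 peak lay within 100 bp of 445 adult sites, which had a median width of 379 bp and a median fold of 2.70. Just outside the rule, 528 adult peaks had at most 100 bp under H3K4me1, with a median width of 360 bp and a median fold of 2.69. In fetal HPC 317 such sites had a median width of 423 bp and a median fold of 3.18, and the 400 peaks just outside had 397.5 bp and 3.10. Peaks on either side of the edge were thus much alike.

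Strength, taken as the authors' −log10 q within each list, went with how common such sites were. Among adult peaks the share without H3K4me1 was 24.5% below a −log10 q of 5, 13.3% from 5 to 10, 3.36% from 10 to 20, 1.67% from 20 to 50 and 0.9504% at 50 or more. Among fetal peaks the shares in the same order were 37.4%, 26.4%, 9.42%, 3.09% and 1.21%. Peaks with a −log10 q of at least 20 are called strong below, a limit chosen after the data were seen. There were 244 strong adult sites among 19607 strong adult peaks (1.24%) and 275 strong fetal sites among 12487 strong fetal peaks (2.20%). The remaining 5852 adult and 9464 fetal sites were weak, and the strong and weak sites differed in most of what follows.

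A larger share of the acetylated peaks lacked H3K4me1 on X than on any autosome, although X held few of the sites in all, 3.66% of the adult and 2.03% of the fetal ones. On X, 223 of 720 adult H3K27ac peaks lacked H3K4me1, or 31.0% (27.7% to 34.4%), against 9.41% on the autosomes together, whose single values ran from 7.17% to 10.8%. In fetal HPC it was 198 of 569 X peaks, or 34.8% (31.0% to 38.8%), against 18.97% on the autosomes and 12.8% to 25.5% on single ones. All 5 adult and all 4 fetal Y peaks belonged to the set.

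**Figure D1:**
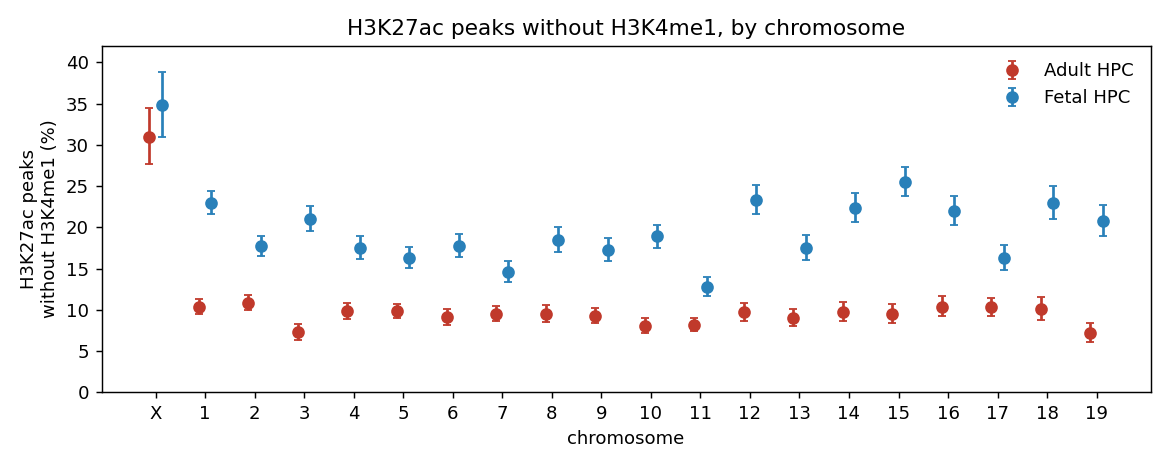
Share of HPC H3K27ac peaks without H3K4me1 (vertical axis, %) on chromosome X and the 19 autosomes (horizontal axis), with adult HPC in red, fetal HPC in blue and 95% Wilson intervals as bars. X stood at 31.0% in adult and 34.8% in fetal HPC, above each autosome at the same age.

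Off X the share without H3K4me1 fell in each step of strength, whereas on X it was highest in the middle. On X the adult shares were 26.9%, 30.5%, 40.0%, 32.6% and 24.4% from the weakest to the strongest of the 5 classes, and the fetal ones were 31.6%, 31.5%, 41.5%, 37.4% and 26.6%. At a −log10 q of 50 or more, 51 of 209 adult X peaks (24.4%) lacked H3K4me1, against 0.519% on other chromosomes, a difference of 23.9 points (18.6 to 30.1). The fetal count was 25 of 94 X peaks (26.6%), against 0.794%, a difference of 25.8 points (17.9 to 35.5). Below a −log10 q of 5 the intervals of X and the rest overlapped, with 14 of 52 adult X peaks (26.9%) against 24.5%, and 12 of 38 fetal X peaks (31.6%) against 37.4%. X held 1.14% of all adult and 1.12% of all fetal H3K27ac peaks, and 1.75% of all strong adult peaks and 1.93% of all strong fetal ones. It held 95 of the 244 strong adult sites without H3K4me1 (38.9%), against 1.29% of the other strong adult peaks. It held 80 of the 275 strong fetal sites (29.1%), against 1.32% of the other strong fetal peaks.

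**Figure D2:**
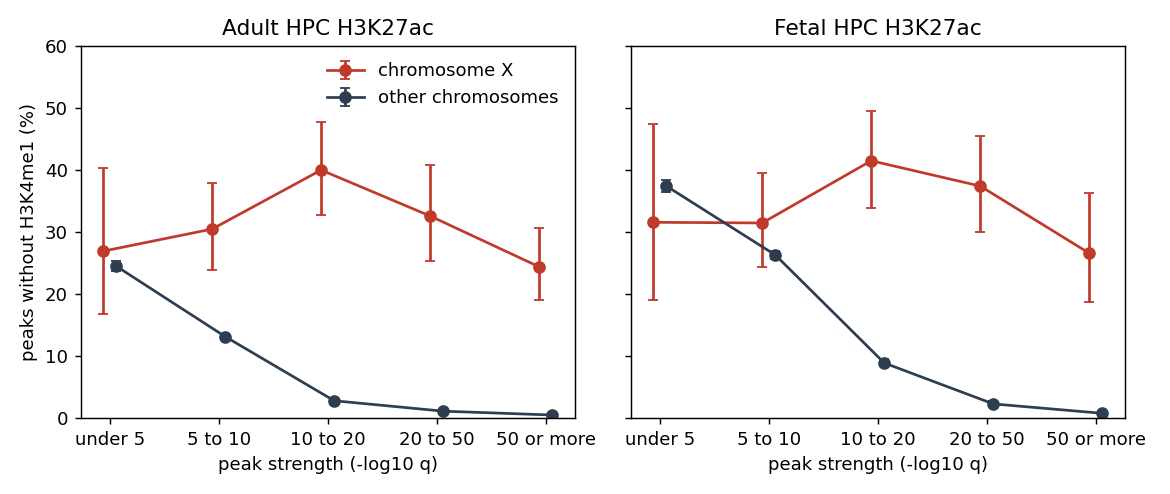
Share of H3K27ac peaks without H3K4me1 (vertical axis, %) by the authors' −log10 q (horizontal axis) on chromosome X (red) and on other chromosomes (dark), in adult HPC (left) and fetal HPC (right), with 95% Wilson intervals. The red points stay between 24.4% and 41.5%, and the dark points drop to 0.519% in adult and 0.794% in fetal HPC.

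The 4 H3K4me1 lists gave X between 0.793% and 1.00% of their peak bases and between 1.45% and 1.58% of their peaks. H3K27ac gave X 1.18% of its peak bases and 1.14% of its peaks in adult HPC, and 1.31% and 1.12% in fetal HPC. X thus had the smaller part of H3K4me1 by bases and the larger part by number. H3K4me1 peaks on X had median widths of 346.5 to 541 bp, against 433 to 872 bp on other chromosomes. H3K27ac peaks went the other way, with a median of 926 bp on X against 698 bp elsewhere in adult HPC, and 776 bp against 518 bp in fetal HPC. In the second K27 set X held 12.4% of adult peaks and 1.37% of fetal peaks. The part of these values, or of the unstated sex, in the X result was not tested.

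A large part of the acetylated X genes belonged to the set. Of 306 acetylated X coding genes in adult HPC (those with an H3K27ac peak within 1 kb of a start), 112 had only sites without H3K4me1 there (36.6%, 31.4% to 42.1%), against 125 of 9415 such genes elsewhere (1.33%) and 2.44% of all acetylated coding genes. In fetal HPC 85 of 249 X genes did so (34.1%, 28.5% to 40.2%), against 215 of 8054 elsewhere (2.67%) and 3.61% of all. At both ages 61 X genes had only such sites, which is 54.5% of the adult and 71.8% of the fetal X genes. Off X the overlap was 37 genes, 29.6% of the adult and 17.2% of the fetal ones.

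A strong site lay at the start of 69 X coding genes in adult HPC and of 56 in fetal HPC, and 37 genes were in both counts. Phf8, which encodes a histone demethylase, had a site of 2508 bp with a fold of 25.8 in adult HPC and one of 2163 bp with a fold of 11.4 in fetal HPC. Folds belong to each list and are set side by side only. Huwe1, encoding a large ubiquitin ligase, had a site of 4180 bp (fold 20.01) in adult HPC and of 3741 bp (fold 11.9) in fetal HPC. These sites were as long as many peaks with H3K4me1, yet the nearest H3K4me1 peak to Huwe1 began 37 bp past the adult site and 96 bp past the fetal one, and on the other side none lay within 277430 bp of the adult site.

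The next genes were also among those of the strongest sites at starts. Atrx, encoding a chromatin remodeller, had a fold of 18.9 over 1234 bp in adult HPC and 12.1 over 1083 bp in fetal HPC. Smc1a, encoding a cohesin subunit, shares its site with the divergent neighbour Ribc1, with a fold of 15.5 over 1439 bp in adult HPC and 11.3 over 2167 bp in fetal HPC. Morf4l2, a homologue of chromatin proteins that bind methylated histones, had a fold of 14.8 over 2809 bp in adult HPC and 13.2 over 1432 bp in fetal HPC. All of these were sites without H3K4me1 at both ages.

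A further 5 X genes had adult folds from 5.32 to 14.7. Dkc1, encoding the pseudouridine synthase dyskerin, had a fold of 14.7 in adult HPC and 11.5 in fetal HPC. Pola1, encoding the catalytic subunit of DNA polymerase alpha, had a fold of 7.88 over 1415 bp in adult HPC and 5.77 over 1653 bp in fetal HPC. Ndufa1, encoding a subunit of respiratory complex I, had 5.32 over 1628 bp in adult HPC and 4.02 over 459 bp in fetal HPC, where it was weak. Uba1, encoding the enzyme that activates ubiquitin, had 6.31 in adult HPC and 4.52 in fetal HPC, weak there too. Rbmx, encoding an RNA-binding protein, had an adult site with a fold of 14.6, 56 bp from H3K4me1. The fetal H3K27ac peak there overlapped H3K4me1 of the same 4 lists. At Rbmx the class thus differed between ages by the extent of the H3K27ac peaks.

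At gene starts the whole set and its strong part differed. Within 1 kb of a start of a coding or long noncoding gene lay 451 of 5906 adult sites (7.64%), against 20.4% of the other adult peaks and 19.2% of the whole list, a difference of -12.8 points (-13.5 to -12.0). In fetal HPC it was 610 of 9342 sites (6.53%), against 24.2% of the other peaks and 20.8% of the list, a difference of -17.6 points (-18.3 to -17.0). Sites on chromosome 18, which had no annotated starts in the table, are left out of these counts. Among strong peaks the adult order turned. Strong adult sites were at a start in 55.4%, against 45.8% of the other strong peaks and 45.9% of all strong peaks, a difference of 9.56 points (3.22 to 15.7). Strong fetal sites were at a start in 56.5%, against 52.8% of the others and 52.9% of all strong peaks, and the interval of that difference, -2.36 to 9.54 points, held 0. Counting only peaks that cover a start, 44.2% of strong adult sites did, against 43.8% of the other strong adult peaks (difference 0.383 points, -5.78 to 6.72). Of strong fetal sites 36.1% did, against 47.6% of the other strong fetal peaks (-11.5 points, -17.1 to -5.54).

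**Figure D3:**
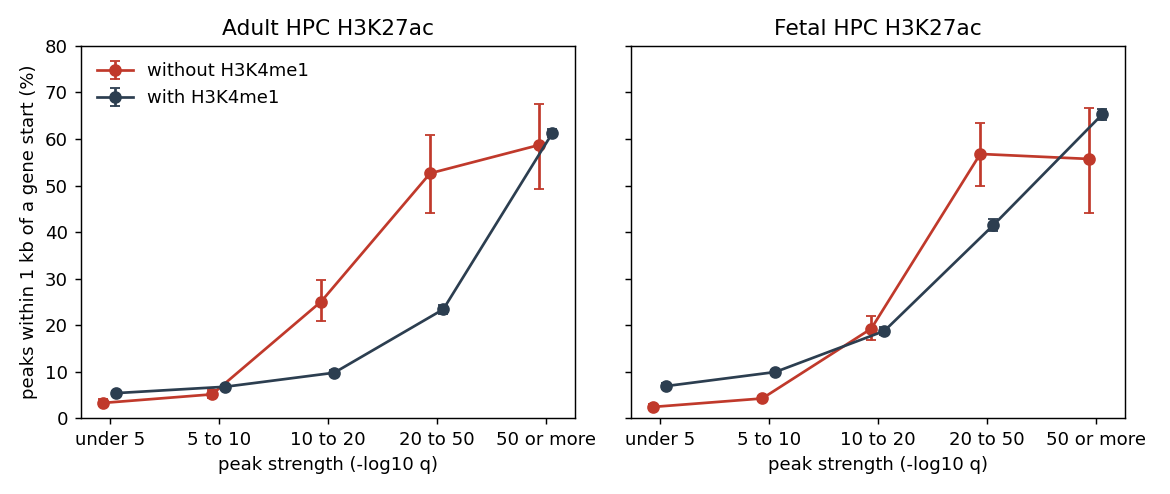
Share of H3K27ac peaks within 1 kb of a gene start (vertical axis, %) by the authors' −log10 q (horizontal axis), for peaks without H3K4me1 (red) and with H3K4me1 (dark), in adult HPC (left) and fetal HPC (right), with 95% Wilson intervals. Red exceeds dark from 20 to 50 at both ages, at 52.6% against 23.4% in adult and 56.8% against 41.5% in fetal HPC.

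The sign also rested on the overlap rule, since it turned at both ages, to 18.0 points in adult HPC and 8.76 points in fetal HPC, when H3K4me1 had to cover at least 0.5 of a peak to remove it. Within classes of strength the adult difference was already positive from a −log10 q of 10 to 20, at 15.3 points (11.0 to 20.1), where the fetal one was 0.497 points (-2.15 to 3.402). From a −log10 q of 20 to 50, adult sites exceeded the other adult peaks by 29.2 points (20.7 to 37.6) and fetal sites exceeded the other fetal peaks by 15.3 points (8.25 to 22.1). At 50 or more the differences were -2.52 points in adult HPC (-11.9 to 6.32) and -9.60 points in fetal HPC (-21.3 to 1.51), both with 0 in the interval. X sites weighed on these counts, since 72.6% of strong adult X sites and 73.8% of strong fetal X sites were at a start. Off X the shares were 44.2% in adult HPC, near the 45.8% of the other strong peaks, and 49.2% in fetal HPC, near 52.8%.

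Sites at starts lay closer to H3K4me1 than sites elsewhere. From the edge of a strong site at a start to the nearest H3K4me1 peak the median distance was 284.5 bp in adult HPC and 229.5 bp in fetal HPC. Weak sites at starts had medians of 639 bp in adult HPC and 304.5 bp in fetal HPC. Away from starts the medians were 663.5 bp for strong and 1615 bp for weak adult sites, and 605 bp for strong and 6499 bp for weak fetal sites. H3K4me1 stood on both sides within 2 kb at 34.3% of strong adult start sites (26.8% to 42.7%) and at 53.3% of strong fetal ones (45.4% to 61.0%). It did so at 27.1% of weak adult start sites and at 59.2% of weak fetal ones. Away from starts it did so at 16.1% of weak adult sites and at 3.91% of weak fetal ones. These distances use the same peaks as the rule and are given as a description.

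**Figure D4:**
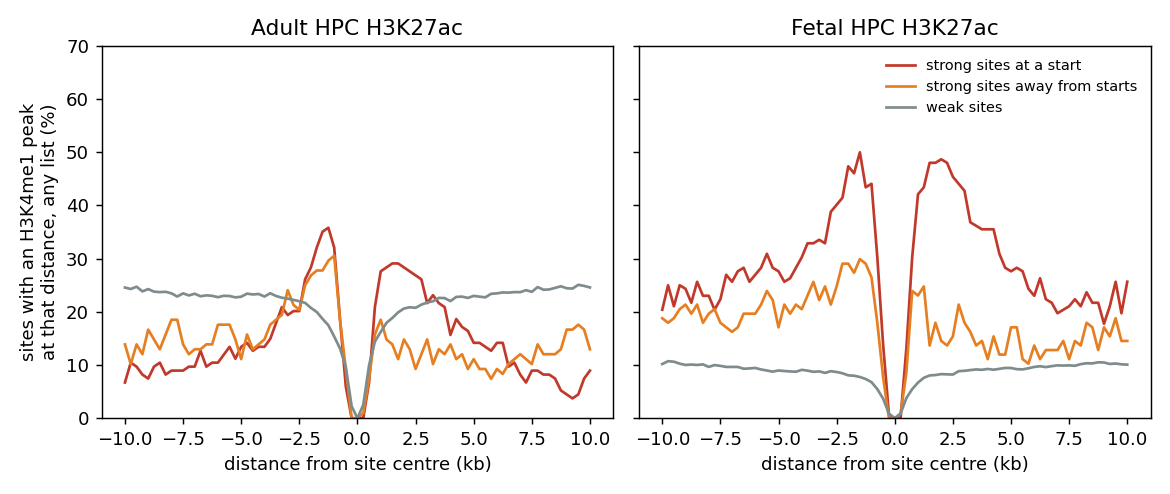
Share of sites with an H3K4me1 peak of any of the 4 lists (vertical axis, %) at each distance from the site's centre (horizontal axis, kb, along the chromosome), for strong sites at a start (red), strong sites away from starts (orange) and weak sites (grey), in adult HPC (left) and fetal HPC (right). The centre is 0 by the rule, and the red line is highest at -1250 bp in adult HPC, at 35.8%, and at -1500 bp in fetal HPC, where it is at 50%.

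Along the direction of transcription the flank was uneven. Of 134 strong adult start sites, 54 had H3K4me1 within 2 kb downstream only and 3 upstream only, while 46 had it on both sides and 31 on neither. Of 152 strong fetal ones, 53 had it downstream only, 3 upstream only, 81 on both sides and 15 on neither. On X, downstream only was the most frequent arrangement, at 58.0% of 69 adult sites and 61.0% of 59 fetal ones. Off X, both sides was the most frequent, at 49.2% of 65 adult sites and 72.0% of 93 fetal ones.

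Sites at regulators of stem cells and lymphoid cells were few, and most were fetal. The 23 gene lists compared here held 336 genes with an annotated start, and a site without H3K4me1 lay at 6 of the 255 acetylated ones in adult HPC and at 17 of 243 in fetal HPC. Over all acetylated coding genes the shares with such a site were 3.22% in adult HPC and 6.31% in fetal HPC, so neither count stands far from the background. Among 85 acetylated genes for ribosomal proteins, respiration, the proteasome, splicing and translation, 2 had a site in adult HPC and 3 in fetal HPC. Lists of myeloid genes, of interferon and antigen presentation genes and of silent developmental regulators had none at either age, and the last list had no H3K27ac peak at any of its 20 starts.

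Of the stem and progenitor list, Mllt3 had a site in adult HPC, while Hlf, Prdm16 and Mllt3 had one in fetal HPC. Mllt3, a chromatin reader that sustains stem cell self-renewal, had a site of 2784 bp with a fold of 6.31 in adult HPC, where H3K4me1 began 91 bp to one side and 95 bp to the other. In fetal HPC its site had 900 bp and a fold of 4.85 and lay 963 bp from the start. Counted by gene, Mllt3 was not among the genes with only such sites in adult HPC. Hlf, encoding a transcription factor of stem cells, had a fetal site of 1316 bp with a fold of 6.36. Prdm16, encoding another stem cell transcription factor, had a fetal site of 709 bp with a fold of 5.52. The adult H3K27ac peaks at the Hlf and Prdm16 sites overlapped H3K4me1. The same 4 H3K4me1 lists served both ages, so the class differed here by the extent of the H3K27ac peaks. H3K4me1 itself was not compared between ages at these genes. From the fetal sites the nearest H3K4me1 peak lay 387 bp away at Hlf and 512 bp away at Prdm16.

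Bcl11a, encoding the repressor of fetal globin genes that B cells also need, had the widest site of the fetal set, 5465 bp with a fold of 8.45. The nearest H3K4me1 peaks lay 524 bp to one side and 805 bp to the other. The adult acetylated peak there overlapped H3K4me1 of the same lists. Fetal sites of lower strength lay at Notch1 (fold 3.51), encoding a receptor of T cell fate, at Chd4 (3.85), encoding the NuRD remodeller, at Dnmt3a (3.35), encoding a DNA methyltransferase, and at Nfkbia (4.52), encoding an NF-kB inhibitor. Each of these 4 overlapped an adult peak that reached H3K4me1 of the same lists, and the fetal Chd4 site ended 2 bp from an H3K4me1 peak. Among markers of other cells, Igll1 of B cell precursors alone had a site, in fetal HPC, with a fold of 2.68 and no adult peak.

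Several of the highest folds lay away from the annotated starts of coding genes. Only 17492 of 21900 coding genes had an annotated start, so a site counted as away from starts may lie near one. The site near the long noncoding RNA gene 1700063D05Rik on chromosome 9 had the highest fold of both sets, 41.6 over 1357 bp in adult HPC and 40.2 over 1084 bp in fetal HPC. Kcnq1ot1, the imprinted antisense RNA that silences its neighbours, had a fetal site with a fold of 11.8, 35 bp from H3K4me1. Its adult peak overlapped H3K4me1 of the same lists. Zfp36l2, encoding a protein that speeds mRNA decay, had a site inside its body with a fold of 31.8 in adult HPC and 22.3 in fetal HPC.

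On chromosome 8 between positions 19784506 and 20551013 (mm10), 4 strong sites of nearly one length recurred at both ages, at 910 to 1024 bp in adult HPC and 895 to 972 bp in fetal HPC. The adult folds there ran from 12.5 to 32.9 and the fetal ones from 13.1 to 15.8. The nearest annotated genes of the strongest were the pseudogenes Gm10060 and Gm21811 and the coding gene Gm40469. Reads from near-identical copies can be placed at more than one of them, and whether these places are copies was not tested. The sites are counted as strong wherever strong sites are counted.

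Genes for tRNA and small nuclear RNA, and pseudogenes, were near a larger share of strong sites than of other strong peaks. For miRNA and snoRNA genes the counts of strong sites were too small to compare. MicroRNA genes were within 1 kb of 1 strong adult site (0.410%), against 0.744% of the other strong adult peaks, and of 1 strong fetal site (0.364%), against 0.802%. For snoRNA genes it was 2 strong adult sites (0.820%, 0.225% to 2.94%), against 0.460%, and 2 strong fetal sites (0.727%), against 0.614%. Among weak peaks it was 0.308% of adult sites against 0.0877% of the others, and 0.127% against 0.128% in fetal HPC. Pseudogenes were within 1 kb of 15 strong adult sites (6.15%, 3.76% to 9.89%), against 1.73% of the other strong peaks. In fetal HPC it was 9 (3.27%, 1.73% to 6.10%), against 1.48%. Within 1 kb of a tRNA gene lay 9 of the 244 strong adult sites (3.69%, 1.95% to 6.86%), against 0.403% of the other strong adult peaks and 0.444% of all strong ones. In fetal HPC it was 9 of 275 (3.27%, 1.73% to 6.10%), against 0.467% of the others and 0.529% of all. For small nuclear RNA genes, which encode parts of the spliceosome and related particles, the adult count was 8 (3.28%, 1.67% to 6.34%), against 0.367% of the others and 0.403% of all. The fetal count was 4 (1.45%, 0.567% to 3.68%), against 0.434% of the others and 0.456% of all. Among weak peaks the order for small nuclear RNA genes was reversed, at 0.0854% of adult sites against 0.114%, and 0.0106% of fetal sites against 0.131%. For tRNA genes the weak shares were 0.290% against 0.0770% in adult HPC and 0.222% against 0.0899% in fetal HPC. For pseudogenes they were 1.57% against 1.20% and 1.33% against 1.17%. By gene, 54 of 171 tRNA genes with adult H3K27ac within 1 kb had a site without H3K4me1 (31.6%), and 53 of 146 did in fetal HPC (36.3%). Many tRNA genes share a site, so the genes are not independent.

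A few sites at small nuclear RNA genes had high folds. Gm22614 on chromosome 3 lay 179 bp from an adult site of 352 bp with a fold of 31.2, and 154 bp from a fetal site of 380 bp with a fold of 26.6. Gm23971 on chromosome 11 had an adult site with a fold of 20.1 and a fetal one with 23.9. Gm24950, less than 5 kb away, had 17.6 in adult HPC and 20.6 in fetal HPC. The other strong sites at small nuclear RNA genes had folds from 4.75 to 10.1 in adult HPC and of 5.27 in fetal HPC. At tRNA genes folds ran from 4.97 to 7.09 in adult HPC and from 4.94 to 9.96 in fetal HPC. The site at n-TKctt18 on chromosome 9 had 7.09 over 1105 bp in adult HPC and 9.96 over 1285 bp in fetal HPC. The site over n-TYgta10 on chromosome 14 had 5.68 in adult HPC and 5.69 in fetal HPC. Copies of these genes are near-identical, and how the aligner placed reads that fit several copies is not given in the sources used here.

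Replication-dependent histone genes, which are short and lie in clusters, had sites at 2 of 16 acetylated genes at each age, H2ac18 and H2bc12. Over all acetylated coding genes the shares were 3.22% in adult and 6.31% in fetal HPC, and 2 genes are too few to compare. At both genes another H3K27ac peak, with H3K4me1, also lay within 1 kb of the start at each age. H2bc12 had a site of 618 bp with a fold of 7.88 in adult HPC and of 497 bp with a fold of 5.44 in fetal HPC. H3K4me1 began 143 bp and 160 bp from the edges of the adult site. The site near H2ac18 had 282 bp and a fold of 8.44 in adult HPC, and 265 bp and 6.78 in fetal HPC.

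Strong sites usually recurred at the other age and weak ones rarely did. Of the 244 strong adult sites, 196 (80.3%) overlapped a fetal H3K27ac peak, against 87.8% of the other strong adult peaks and 87.7% of all strong ones, a difference of -7.43 points (-12.9 to -2.90). Of the 275 strong fetal sites, 254 (92.4%) overlapped an adult peak, against 99.0% of the others and 98.9% of all, a difference of -6.68 points (-10.4 to -4.08). From a −log10 q of 20 to 50 the adult difference was -3.15 points (-11.4 to 4.02), with 0 in the interval. The fetal one was -7.14 points (-11.8 to -3.95). At 50 or more the differences were -4.99 points in adult HPC (-11.4 to -1.43) and -4.07 points in fetal HPC (-11.5 to -1.29). Weak adult sites overlapped a fetal peak in 3.67%, against 23.4% of the other weak adult peaks. Weak fetal sites overlapped an adult peak in 7.09%, against 62.2%. Over the whole adult set the share was 6.74%, against 45.3% of the other peaks and 41.5% of the list. Over the fetal set it was 9.50%, against 73.1% and 61.0%. The differences over the whole sets, -38.5 points in adult HPC and -63.6 points in fetal HPC, shrank to -5.76 and -37.0 points when H3K4me1 had to cover at least 0.5 of a peak.

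**Figure D5:**
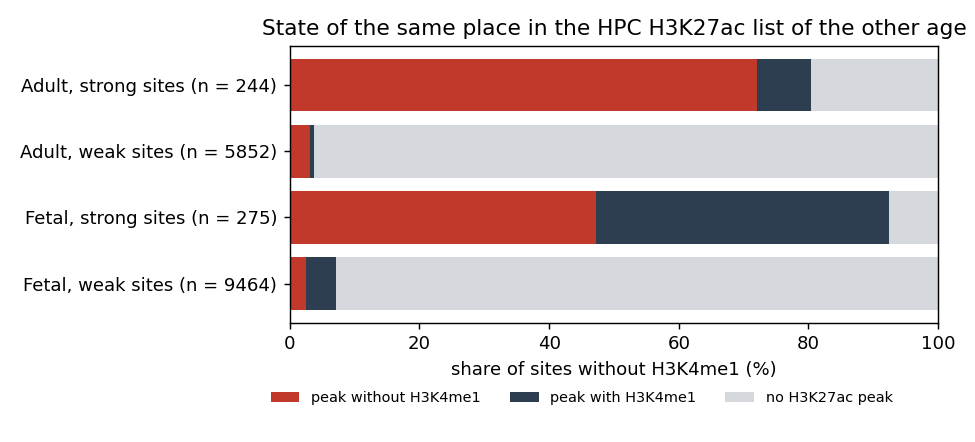
What the HPC H3K27ac list of the other age held at strong and weak sites without H3K4me1, as shares of the sites (horizontal axis, %), with adult sites above fetal ones. Red is a peak without H3K4me1, dark a peak with H3K4me1 and grey no peak, and red covers 72.1% of strong adult and 47.3% of strong fetal sites.

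What was found at the other age differed with direction. Of the strong adult sites, 176 overlapped a fetal site without H3K4me1, 20 a fetal peak with H3K4me1 and 48 no fetal peak. Of the strong fetal sites, 130 overlapped an adult site without H3K4me1, 124 an adult peak with it and 21 none. Since the same 4 H3K4me1 lists served both ages, an overlapping peak of the other age could differ in class only by its own extent. The median width of strong sites was 943.5 bp in adult HPC, against 1990 bp for the other strong adult peaks, and 836 bp in fetal HPC, against 1845 bp for the other strong fetal peaks.

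Some coding genes held many sites. In adult HPC 97 coding genes held 5 or more sites without H3K4me1 in their bodies, together 701 sites or 11.5% of the set, and in fetal HPC 290 genes did, with 2154 sites or 22.1%. The adult genes with the most were Snx29, with 21 sites set beside 97 H3K27ac peaks in its body, the immunoglobulin heavy chain locus Igh with 21 beside 131, Aff3 with 20 beside 51, Cdh23 with 17 beside 52 and the RNA-binding protein gene Msi2 with 15 beside 110. The fetal genes with the most were Nbas, encoding a Golgi to endoplasmic reticulum transport factor, with 23 beside 27, and Inpp4b, encoding a phosphoinositide phosphatase, with 21 beside 31. Next came Herc2 and Mycbp2, both encoding ubiquitin ligases, with 20 beside 22 and 20 beside 24, and Utrn, encoding the dystrophin relative utrophin, with 19 beside 57. Sites were counted at the nearest gene within 100 kb, so a few may lie outside its body. None of the sites in these genes was strong, and their median folds ran from 2.41 to 2.69 in the adult genes and from 2.76 to 2.93 in the fetal ones. How many genes hold as many of the other peaks was not counted. The named genes were long, from 181677 bp at Herc2 to 2751187 bp at Igh, and the counts were not scaled by length. Over the whole lists 9.66% of adult and 19.1% of fetal H3K27ac peaks were such sites. Over all sites, 61.6% lay in a coding gene body in adult HPC, against 67.4% of the other peaks and 66.8% of the list. The fetal share was 66.1%, against 72.1% and 71.0%. Among weak peaks alone the shares were 61.4% of sites against 62.3% of the other peaks in adult HPC, and 65.9% against 68.9% in fetal HPC.

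The median distance to H3K4me1 over all sites was 1486 bp in adult HPC and 5881 bp in fetal HPC, again as a description of values the rule used. At starts the order was the other way, at 499 bp in adult HPC and 280 bp in fetal HPC. More than 20 kb from any H3K4me1 peak lay 198 adult and 1789 fetal sites, whose median folds were 2.63 in adult HPC and 2.85 in fetal HPC. Another H3K27ac peak, one with H3K4me1, stood within 1 kb of 14.0% of adult sites and 5.34% of fetal sites. For strong sites the shares were 17.2% in adult HPC and 34.5% in fetal HPC. Off X they were 24.8% of strong adult and 42.1% of strong fetal sites, and on X 5.26% and 16.25%.

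A small share of fetal sites also overlapped the second K27 set. It was 194 of 9739 fetal sites (1.99%, 1.73% to 2.29%), against 0.124% of the other fetal H3K27ac peaks and 0.482% of the list, a difference of 1.87 points (1.61 to 2.17). Of the 194, 193 were weak, 9 lay at a gene start and 75 also overlapped the adult second K27 set, and their median distance to H3K4me1 was 18171 bp. In adult HPC 5 of 6096 sites (0.0820%) overlapped, against 0.0210% of the other adult peaks and 0.0269% of the list. If the titles are right this set is the Polycomb mark H3K27me3, which cannot share a lysine with acetylation on the same histone tail. The conflict in the labels means that the mark cannot be named here.

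Promoters with these sites within 1 kb were less rich in CpG at the median than other acetylated promoters, with overlapping quartiles. Such a site need not cover the start. Of the sites within 1 kb of a start, 212 of 451 adult and 264 of 610 fetal ones did. The ratio of observed to expected CpG in the 300 bases had a median of 0.618 over 299 adult windows. The only H3K27ac peaks within 1 kb of these starts were sites without H3K4me1. The median was 0.774 over 11452 other acetylated windows and 0.241 over 9512 unacetylated ones. The fetal median was 0.728 over 373 windows, against 0.794 over 9583 and 0.276 over 11307. On X it was 0.646 against 0.692 for other acetylated X windows in adult HPC and 0.653 against 0.710 in fetal HPC. Off X the values were 0.601 against 0.775 in adult HPC and 0.758 against 0.796 in fetal HPC. Over all chromosomes the adult quartiles were 0.361 to 0.796, against 0.576 to 0.920 for other acetylated windows. The fetal ones were 0.497 to 0.865, against 0.617 to 0.933. The windows were not split by peak strength. Weak peaks were 317 of the 451 adult sites at starts, against 2675 of 11290 other adult peaks there. In fetal HPC they were 458 of 610, against 3340 of 9609.

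Motif shares followed the same windows. The GC box was in 54.5% of adult windows (48.8% to 60.1%), against 64.5% of other acetylated windows, and in 63.8% of fetal windows (58.8% to 68.5%), against 65.0%, with 46.2% among all 21263 coding windows. The ETS motif CCGGAAG was in 13.7% of adult windows (10.3% to 18.1%), against 18.9% of other acetylated windows, and in 11.5% of fetal windows (8.67% to 15.2%), against 21.2%, with 11.6% among all. CCAAT was in 35.1% of adult windows, against 37.8%, and in 41.6% of fetal windows, against 38.2%, with 38.2% among all. The TATA box was in 8.70% of adult windows, against 6.37%, and in 7.51% of fetal windows, against 6.49%, with 12.6% among all. The E-box was in 11.7% of adult windows, against 10.5%, and in 13.9% of fetal windows, against 10.6%, with 7.84% among all.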

How the data were processed

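Histone marks were measured by ChIPmentation in 27 mouse libraries. Per the submitters' processing notes, Novoalign and MACS2 were used with the build mm10 (GRCm38), while versions, calling threshold, filter and use of the 3 inputs were not given in the sources used here. For each group the authors deposited 1 pooled peak list, which holds per peak a fold ratio over background and −log10 p and −log10 q values. The authors' peak values served only for describing and ranking peaks inside 1 list.

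Overlaps of 1 bp or more were computed with numpy 2.4.6 and pandas 2.3.3 and checked with bedtools 2.31.1 and on simulated data. Gene names and the 32851 start windows of coding and long noncoding genes came from RefSeq tables (GRCm38.p6). Of 21900 coding genes 17492 had a start, none of them on chromosome 18 and few on chromosome 15 (54.4% of its coding genes). All 442 genes of the 23 lists matched the gene table. Intervals are 95% Wilson and Newcombe intervals. The sites and gene lists were chosen with earlier results of these data known. Named genes were the 10 strongest sites at starts per age, up to 3 genes per list, the 5 genes with most sites, and the 5 strongest sites away from starts. Other genes named at small RNA genes were chosen after their values were seen, and a gene named at one age has its values at both. Depth per library is unknown. The alternatives varied the overlap rule, the lists, the thresholds and the distances.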

Additional observations from a re-analysis of the deposited data

How the results depend on the processing

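No paired analysis was possible because each group has 1 pooled list, and for the same reason leaving out single libraries was not possible. Of 98 recomputed values, 23 stayed within the 95% interval of the reported one, 70 moved outside it in the same direction and 5 changed sign. All of the sign changes concerned gene starts. The settings for strong peaks and for either end of any gene were chosen after seeing the data, and the causes of the shifts were not tested. Depth, the caller's threshold and the use of inputs are unknown, so absence of a peak does not show absence of a mark.

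The share of H3K27ac peaks without H3K4me1, in %, was 5.61 in adult and 15.6 in fetal HPC with peaks within 1 kb of H3K4me1 also removed, 18.0 in adult and 28.0 in fetal HPC when H3K4me1 had to cover at least 0.5 of a peak to remove it and 13.1 in adult and 24.6 in fetal HPC against the HPC list of the same age alone. It was 12.1 in adult and 23.2 in fetal HPC against the strongest 100000 peaks of each H3K4me1 list, 6.76 in adult and 15.5 in fetal HPC for H3K27ac peaks with a −log10 q of at least 5 and 1.25 in adult and 4.42 in fetal HPC for the strongest 20000 H3K27ac peaks. It was 6.73 in adult and 13.0 in fetal HPC for peaks of at least 300 bp, 9.41 in adult HPC on autosomes and 1.24 in adult and 2.20 in fetal HPC for strong peaks.

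The difference in the share at gene starts, in points, was -15.1 in adult and -22.5 in fetal HPC with peaks within 1 kb of H3K4me1 also removed, 18.0 in adult and 8.76 in fetal HPC when H3K4me1 had to cover at least 0.5 of a peak to remove it and -11.8 in adult and -11.4 in fetal HPC against the HPC list of the same age alone. It was -12.0 in adult HPC against the strongest 100000 peaks of each H3K4me1 list, 9.63 in adult and -7.75 in fetal HPC for the strongest 20000 H3K27ac peaks and -14.7 in adult and -18.7 in fetal HPC on autosomes. It was 9.56 in adult and 3.68 in fetal HPC for strong peaks, -16.4 in fetal HPC with starts within 500 bp and -14.1 in adult and -20.7 in fetal HPC with starts within 2500 bp. It was -13.6 in adult and -18.9 in fetal HPC with either end of any annotated gene on all chromosomes in place of starts.

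The difference in overlap with the other age, in points, was -69.1 in fetal HPC with peaks within 1 kb of H3K4me1 also removed, -5.76 in adult and -37.0 in fetal HPC when H3K4me1 had to cover at least 0.5 of a peak to remove it and -36.9 in adult and -56.1 in fetal HPC against the HPC list of the same age alone. It was -37.7 in adult and -65.7 in fetal HPC against the strongest 100000 peaks of each H3K4me1 list, -40.2 in adult and -65.0 in fetal HPC for H3K27ac peaks with a −log10 q of at least 5 and -7.83 in adult and -41.8 in fetal HPC for the strongest 20000 H3K27ac peaks. It was -39.2 in adult HPC for peaks of at least 300 bp, -40.4 in adult and -65.2 in fetal HPC on autosomes and -7.43 in adult and -6.68 in fetal HPC for strong peaks. It was -42.6 in adult and -69.7 in fetal HPC with peaks of the other age within 1 kb.

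The difference in overlap with the second K27 set, in points, was 2.26 in fetal HPC with peaks within 1 kb of H3K4me1 also removed, 1.31 in fetal HPC when H3K4me1 had to cover at least 0.5 of a peak to remove it and 1.59 in fetal HPC against the HPC list of the same age alone. It was 0.766 in adult and 1.60 in fetal HPC for the strongest 20000 H3K27ac peaks, 1.44 in fetal HPC for peaks of at least 300 bp and 0.789 in adult and 0.306 in fetal HPC for strong peaks.

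The ratio of median widths was 0.430 in adult HPC with peaks within 1 kb of H3K4me1 also removed, 0.698 in adult and 0.646 in fetal HPC when H3K4me1 had to cover at least 0.5 of a peak to remove it and 0.412 in adult HPC against the HPC list of the same age alone. It was 0.468 in fetal HPC against the strongest 100000 peaks of each H3K4me1 list, 0.357 in adult and 0.409 in fetal HPC for H3K27ac peaks with a −log10 q of at least 5 and 0.476 in adult and 0.320 in fetal HPC for the strongest 20000 H3K27ac peaks. It was 0.464 in adult and 0.513 in fetal HPC for peaks of at least 300 bp, 0.415 in adult HPC on autosomes and 0.474 in adult and 0.453 in fetal HPC for strong peaks.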
